A study of Homo sapiens with 60 samples.

Results

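The cytosolic ribosomal protein genes were followed in HepG2, a human hepatocellular carcinoma line, after 24 h with ethanol extracts of herbal medicines. Members were the protein-coding genes whose Ensembl identifier maps to an RPL or RPS symbol of the standard form, or to RPLP0, RPLP1, RPLP2 or RPSA, with a mean of at least 5 CPM (counts scaled to a fixed library size) over the 60 libraries. The rule gave 77 of the 60675 identifiers in the table, 46 for proteins of the large subunit and 31 for the small subunit, and no symbol of this form fell to the level condition. The vehicle group held 3 libraries with 0.1% DMSO per the sample labels, while the series text gives 2% for the vehicle. Cells of the other groups received 1 of 3 concentrations of an extract, 20, 100 or 500 µg/mL. Cnidii Rhizoma (Cnidium), Rehmanniae Radix Preparata (Rehmannia), Astragali Radix (Astragalus) and Cinnamomi Cortex (Cinnamon) had 3 libraries per dose. Angelicae Gigantis Radix (Angelica), Paeoniae Radix (Paeonia) and the formula Sagunja-tang had 2 per dose, and the formula Samul-tang had 1 per dose and entered no test. The library codes of the vehicle carry a prefix that no extract library has, so a difference from vehicle cannot be told apart from a difference between the prefixes, whereas the doses of an extract share a prefix. The labels do not say whether replicates were separate cultures, so p-values measure the spread between these libraries only.

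The cytosolic ribosome joins a large and a small subunit, each built of ribosomal RNA and a set of mostly single-copy proteins. Its genes are among the most abundantly transcribed in a growing cell. Their mRNAs typically begin with a 5′ terminal oligopyrimidine (TOP) tract, a C at the cap followed by an unbroken run of C and T, through which the mTOR pathway and LARP1 control their translation and stability. Proteins that the ribosome does not take up are degraded, and free RPL5 and RPL11 bind MDM2, the ubiquitin ligase of p53.

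The TOP tract was looked up at the transcription starts of RefSeq (GRCh38.p14), because it is the sequence feature that the members have in common outside the rule. Of the 77 members, 62 had an entry in the promoter table, and 46 of these (74.19%) had a start with a C followed by at least 4 letters that are C or T. Among all 27305 genes of the table, 1404 (5.142%) had such a start on the transcribed strand. The tract was longest in RPL39, with 19 letters, and its median length was 8 in the members that had one. The sequences give 30 bases before and 15 bases from the start, 5′ to 3′ on the transcribed strand with the tract in capitals, for 11 members that the results turn on, 7 that were higher or lower with dose of Astragalus extract and 4 that were lower in extract libraries than in vehicle. A sequence with no capitals has no tract at that start, and the window of RPL6 is that of 1 of its 2 listed starts. The windows are at chrX:119791616-119791660 (minus strand) for RPL39, chr12:56116603-56116647 (plus) for RPL41, chr15:69452788-69452832 (plus) for RPLP1, chr12:112411428-112411472 (minus) for RPL6, chr17:8383179-8383223 (minus) for RPL26, chr13:27251528-27251572 (plus) for RPL21, chr12:56041888-56041932 (plus) for RPS26, chr6:132814539-132814583 (plus) for RPS12, chr11:809937-809981 (plus) for RPLP2, chr11:17077653-17077697 (minus) for RPS13 and chr9:133348188-133348232 (plus) for RPL7A.
RPL39: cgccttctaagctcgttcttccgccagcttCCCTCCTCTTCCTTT
RPL41: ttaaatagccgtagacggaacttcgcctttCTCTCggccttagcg
RPLP1: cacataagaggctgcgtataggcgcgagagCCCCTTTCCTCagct
RPL6: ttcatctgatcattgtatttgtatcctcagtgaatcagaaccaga
RPL26: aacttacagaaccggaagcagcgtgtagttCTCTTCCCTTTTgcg
RPL21: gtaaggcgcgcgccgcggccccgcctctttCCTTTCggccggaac
RPS26: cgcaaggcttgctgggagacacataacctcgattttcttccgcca
RPS12: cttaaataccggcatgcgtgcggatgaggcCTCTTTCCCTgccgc
RPLP2: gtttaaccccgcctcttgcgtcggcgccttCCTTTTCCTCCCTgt
RPS13: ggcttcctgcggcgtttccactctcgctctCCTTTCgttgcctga
RPL7A: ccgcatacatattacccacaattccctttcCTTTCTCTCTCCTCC
A match in this window is a description of the letters and not a measurement of the tract in these cells. Genes that rose and genes that fell with Astragalus are both among those with a tract.

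The libraries held 21485882 to 34643028 counts, and 26383865 to 31017834 in the vehicle. HepG2 identity was checked on 9 hepatocyte genes, whose summed level was 34720 to 66910 CPM, and on 9 genes of other cell types, of which CD68 carried nearly all of a summed 44.8 to 137 CPM, with PTPRC and DCN at 0 in every library. The Rehmannia 20 µg/mL library of replicate 1 stood apart: of the 18 libraries at 20 µg/mL used in tests it was the lowest for 48 of the 77 members. It also had the smallest share of mitochondrially encoded counts of all 60 libraries, 11.04%. A level in a bulk library is a share of its RNA, so fewer cells of a type and less RNA per cell cannot be told apart. Levels below are CPM after TMM scaling, a correction that sets the bulk of genes equal between libraries.

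Together the members made up 2.88% to 4.10% of all counts in a library, with the large subunit genes at 1.70% to 2.41% and the small subunit genes at 1.18% to 1.70%. In the vehicle libraries the sum was 3.81%, 3.89% and 3.49% (3.73% ± 0.207, SD, n = 3). The 18 libraries at 20 µg/mL had a lowest share of 2.96%, in Angelica replicate 3, and a highest of 3.82% (3.44% ± 0.230, SD). The groups overlapped, and the difference of -0.289 percentage points had p = 0.0564 in a two-sided exact permutation test over 1330 arrangements. Without vehicle replicate 3 the difference was -0.406 points (exact permutation p = 0.0316), and without Rehmannia 20 replicate 1 it was -0.267 points (exact permutation p = 0.0632). The lowest group mean was that of Paeonia at 500 µg/mL (3.01%, libraries at 2.88% and 3.15%), and the highest that of Cinnamon at 500 µg/mL (3.86%).

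Against vehicle, the member genes divided at the lowest dose: 9 were higher and 30 lower at 20 µg/mL, taking the mean of the 7 extracts, in edgeR's quasi-likelihood test with Benjamini-Hochberg adjustment over 16692 genes (adjusted p below 0.05, named a call here). The background was 32.3% of all genes tested called in this comparison, 15.5% higher and 16.8% lower, against 39 of 77 members. The median log2 difference was -0.08 over the members and -0.01 over all genes. The extracts differed in the member median of group mean against vehicle mean. It was -0.17 in Angelica, -0.16 in Rehmannia, -0.13 in Paeonia, -0.05 in Cnidium and -0.04 in Sagunja-tang. In Astragalus it was -0.0 and in Cinnamon 0.03, and the extracts were not compared by a test at this dose. Among the small subunit genes 5 were higher and 15 lower (median -0.15), and among the large subunit genes 4 were higher and 15 lower (median -0.02). Of the 39 called members, 27 kept the call in each of the 21 fits that left out 1 of the libraries compared. Without Rehmannia 20 replicate 1 there were 43 calls.

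RPS12, a protein of the small subunit head, was lowest relative to vehicle. Its vehicle libraries stood at 277, 350 and 286 CPM, and the 18 extract libraries ranged from 136 to 248 with a median of 197. Every extract library lay below every vehicle library, at a log2 difference of -0.67 (SE 0.10, adjusted p = 1.5e-06). RPLP2, an acidic protein of the stalk that recruits elongation factors, was at 189 to 232 CPM in vehicle and at 112 to 178 (median 163) at 20 µg/mL, again without overlap (log2 -0.38, SE 0.07, adjusted p = 5.8e-05). RPS13 of the small subunit (log2 -0.36, adjusted p = 0.00017) and RPL7A of the large subunit (log2 -0.30, adjusted p = 0.00090) also had no overlap. Lack of overlap was a condition for naming RPS12, RPLP2, RPS13 and RPL7A, and 5 of the 39 called members met it. The share of all called genes that met it is not given, so this count is no result about the members. The stalk protein RPLP1 (log2 -0.59), RPS21 (-0.54), RPS27A (-0.53) and RPS29 (-0.47) were lower as well, with overlapping libraries, and RPS29 lost the call without vehicle replicate 2 (adjusted p = 0.12).

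Among the genes higher than vehicle, RPL36A, a large subunit protein, rose by 0.48 (SE 0.09, adjusted p = 0.00011) from 132 to 168 CPM in vehicle to 148 to 259 (median 214). RPS28 (log2 0.48), RPS24 (0.37) and RPL28 (0.33) were also called. RPS24 (adjusted p = 0.056) and RPL28 (adjusted p = 0.088) lost the call without vehicle replicate 3, and RPS28 lost it in 2 of 21 fits, with the highest adjusted p of 0.17 without vehicle replicate 2. RPLP1, RPS21, RPS27A, RPS29, RPL36A, RPS28, RPS24 and RPL28 were picked out for their size after their values were seen. Over all 24 extract groups, 10 members had a mean above the vehicle mean in every group and 4 were below in every group (RPS12, RPS27A, RPS3A and RPS7). All these groups are set against the same 3 vehicle libraries, so they are not separate observations of the difference.

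**Figure D1:**
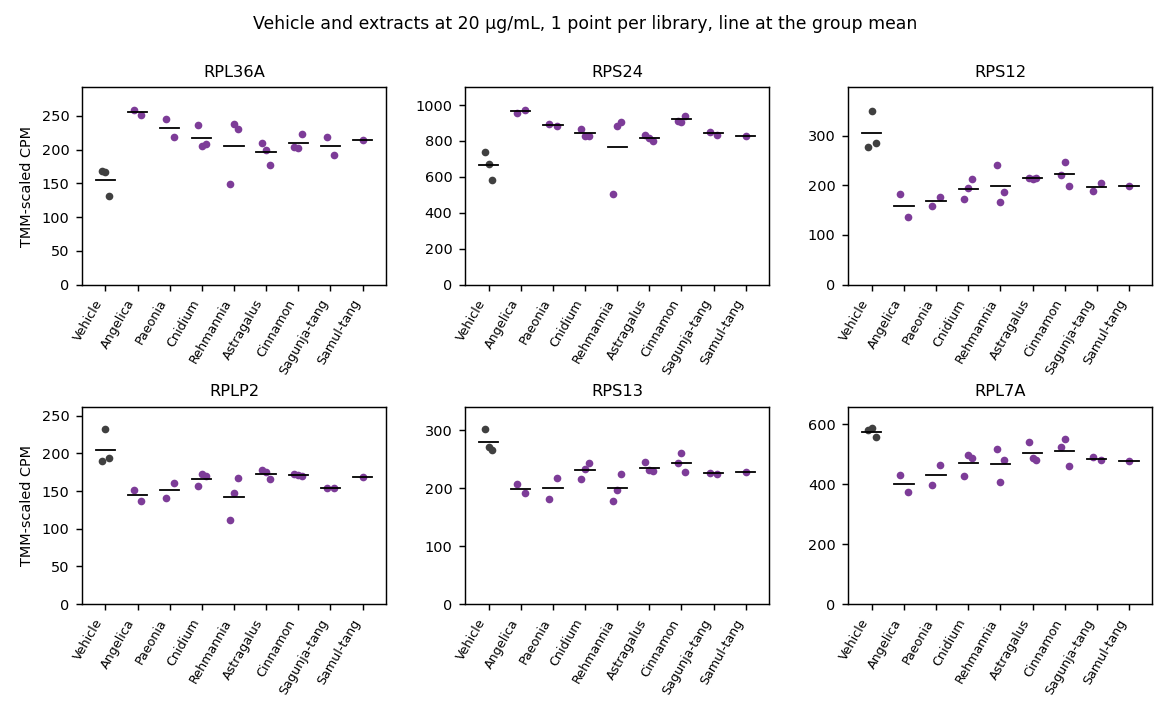
TMM-scaled CPM of 6 members in the vehicle libraries and in the libraries of 8 extracts at 20 µg/mL (points: libraries, lines: group means). RPL36A and RPS24 lie above vehicle except in 1 Rehmannia library, and RPS12, RPLP2, RPS13 and RPL7A lie below vehicle in every extract library.

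At 500 µg/mL the count of members called against vehicle, and its split by direction, varied between the 7 extracts. These counts were not compared by a test, and the extracts had 2 or 3 libraries each. Astragalus had 54 called members, 45 higher and 9 lower, against a background of 69.8% of genes called (33.7% higher, 36.1% lower). Paeonia had 39, with 6 higher and 33 lower (background 46.4%, of which 23.3% higher and 23.0% lower). Angelica had 31, 17 higher and 14 lower (background 22.3%, 11.4% higher and 10.9% lower), and Rehmannia 24, 8 higher and 16 lower (background 20.0%, 10.5% and 9.58%). For Cnidium 15 were higher and 5 lower (background 30.9%, 15.8% and 15.0%). For Sagunja-tang 10 were higher and 4 lower (background 25.6%, 13.8% and 11.8%), and for Cinnamon 12 and 0 (background 14.7%, 7.88% and 6.78%). The share of members called was 70.13% in Astragalus and 15.58% in Cinnamon, both close to the background. It was 50.65% in Paeonia, 40.26% in Angelica, 31.17% in Rehmannia, 25.97% in Cnidium and 18.18% in Sagunja-tang. Which side of the background the last 2 shares fell on depended on the fit. In fits of the compared groups alone 54.5% of members were called in Cnidium (37.3% of all genes) and 37.7% in Sagunja-tang (30.9% of all genes), and without a filter on low counts 51.9% (13.9%) and 41.6% (11.3%). These counts were sensitive to single libraries. Shares over all genes are not given for the fits that follow. Without Angelica 500 replicate 3 there were 17 calls, without Paeonia 500 replicate 2 there were 20, and without Cnidium 500 replicate 1 or replicate 2 there were 9 and 13. Rehmannia had 11 calls without vehicle replicate 2 and 10 without its own replicate 1, Cinnamon 7 without vehicle replicate 3, and Sagunja-tang 9 without vehicle replicate 2 and 6 without either of its own libraries.

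With library totals the majority of calls turned from higher to lower in Astragalus, Angelica and Cnidium, was even in Sagunja-tang, and kept its direction in Paeonia, Rehmannia and Cinnamon. With library totals in place of TMM factors, the median of all genes moved by -0.384 (log2) for Astragalus, -0.211 for Paeonia and -0.141 for Angelica, and by less than 0.1 for the other extracts. The members called were then 11 higher and 28 lower for Astragalus, 0 and 55 for Paeonia, and 8 and 31 for Angelica. For Rehmannia they were 5 and 22, for Cnidium 8 and 12, for Sagunja-tang 7 and 7, and for Cinnamon 9 and 0. These counts are 50.6% of members for Astragalus, where 72.0% of all genes were called, 71.4% for Paeonia (51.1% of all genes), 50.6% for Angelica (28.2%), 35.1% for Rehmannia (19.7%), 25.97% for Cnidium (27.9%), 18.2% for Sagunja-tang (21.1%) and 11.7% for Cinnamon (11.4%). Relative to all genes, the member median was above in Astragalus (-0.01 against -0.43) and below in Paeonia (-0.37 against -0.23) under library totals, as it was with TMM (0.38 against -0.05, and -0.16 against -0.01).

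RPL36A and RPL12 were called higher in all 7 extracts, RPL12 being named after its values were seen. RPL36A ranged from 186 to 270 CPM against 132 to 168 in vehicle, with differences of 0.36 (Astragalus) to 0.74 (Angelica). Its call was lost without vehicle replicate 3 in Astragalus (adjusted p = 0.077), Cinnamon (adjusted p = 0.076) and Paeonia (adjusted p = 0.073). The counts of RPL36A carry the caveat that pseudogenes named after it took 21.04% of the counts shared between gene and copies. RPL12, a protein at the base of the stalk, had differences of 0.20 (Paeonia) to 0.44 (Astragalus), and its call was lost in 4 of 5 fits that left out a library for Paeonia (up to adjusted p = 0.30) and 2 of 5 for Sagunja-tang (up to adjusted p = 0.079). RPS24 of the small subunit was higher in 6 extracts, by 0.37 to 0.57, and stood at -0.14 in Astragalus, where it was not called. Its call was lost in 3 of 5 fits for Paeonia and in 1 of 5 each for Angelica and Sagunja-tang.

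RPS12 was lower in 5 extracts, more than any other member, by -0.39 (Cnidium) to -0.73 (Paeonia). In Astragalus it was at -0.01, with libraries at 297, 325 and 284 CPM that overlapped the vehicle. The calls of RPS12 held without each library in Paeonia and Rehmannia and were lost without Angelica 500 replicate 3 (adjusted p = 0.43), vehicle replicate 2 (adjusted p = 0.17 in Cnidium) or Sagunja-tang 500 replicate 2 (adjusted p = 0.10). In Paeonia RPS27A, which is made as a fusion with ubiquitin, was at 172 and 220 CPM against 339, 379 and 348 in vehicle (log2 -0.86, SE 0.16, adjusted p = 1.8e-05). RPS29, RPS21 and RPLP1 were lower by 0.78, 0.77 and 0.76 on the log2 scale in Paeonia, and none of these 4 lost the call without a library. Across the 7 extracts, 22 members (28.6%) were higher in at least 1 and lower in at least 1, against 21.9% of all genes tested, and 5 members (6.49%) were called in none, against 16.5%.

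**Figure D2:**
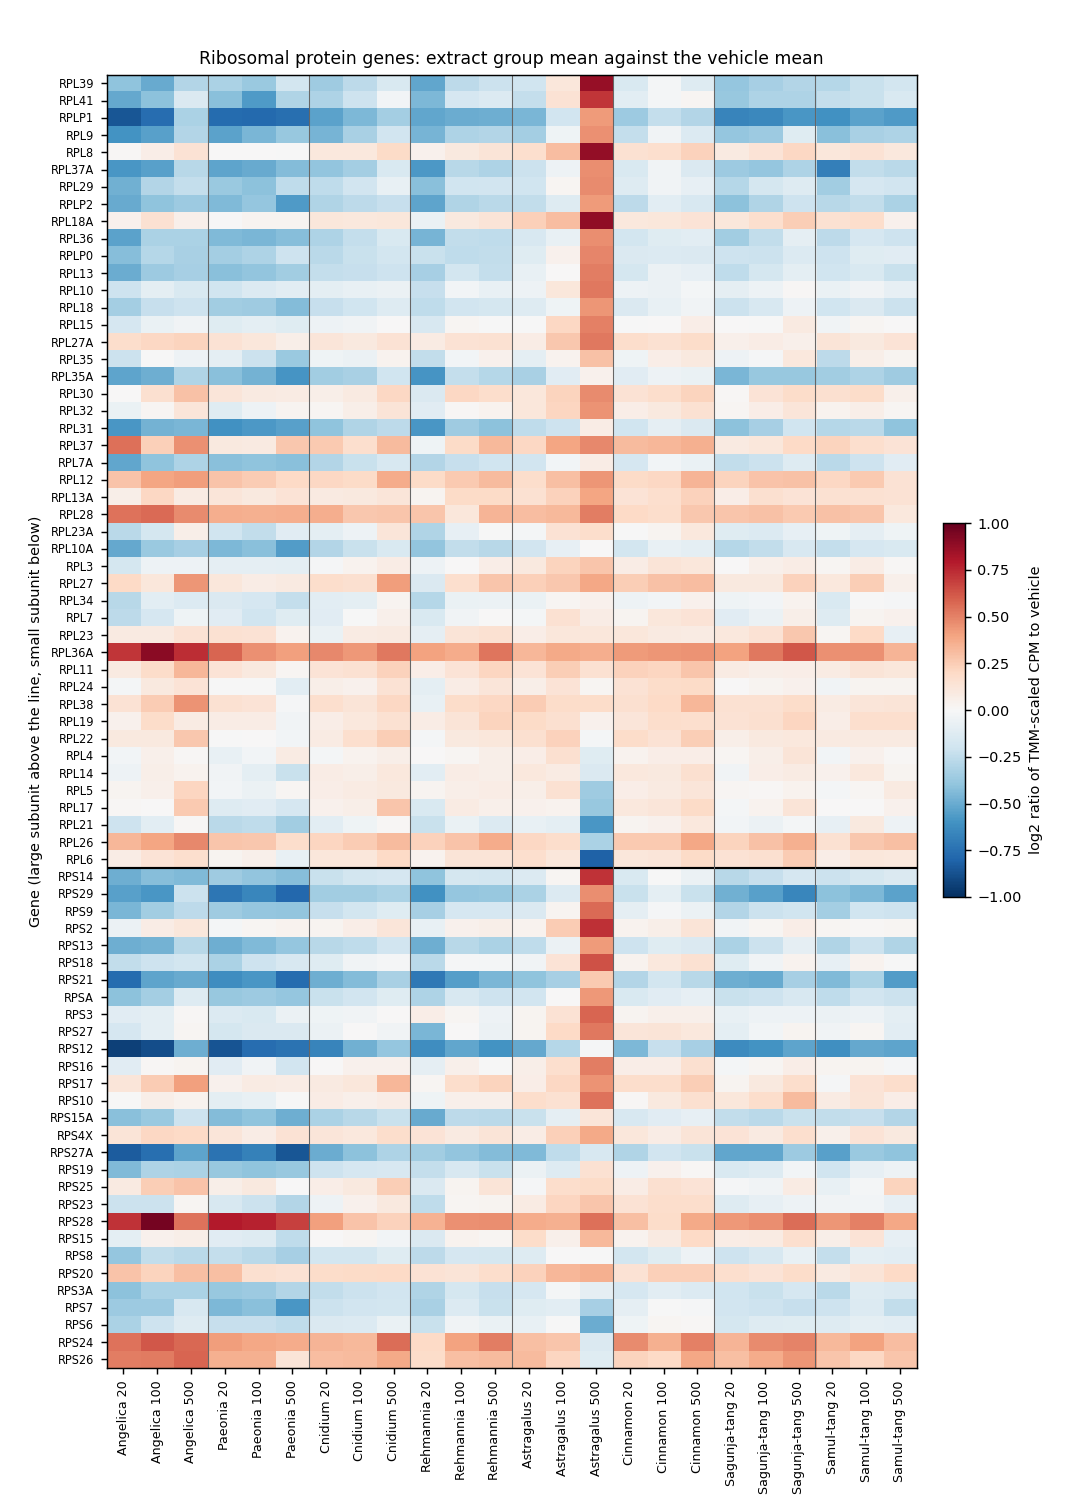
Log2 ratio of the group mean to the vehicle mean for 75 of the members (rows, large subunit above the line and small subunit below, sorted by the Astragalus difference between 500 and 20 µg/mL) and each extract and dose (columns). Red is above vehicle and blue below, and the scale ends at 1 in each direction. The column of Astragalus at 500 µg/mL differs from the rest, while RPL36A and RPS28 are red and RPS12 is blue along most of their rows.

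Doses of the same extract were compared next, which does not involve the vehicle. In Astragalus 54 of 77 members (70.13%) were called between 500 and 20 µg/mL, 43 higher and 11 lower, a share at the background of 69.5% of all genes (34.2% higher and 35.3% lower). The median log2 difference was 0.30 over the members and -0.02 over all genes tested. The large subunit genes had 26 higher and 7 lower (median 0.26), and the small subunit genes 17 higher and 4 lower (median 0.35). Leaving out each Astragalus library of these doses in turn gave 51 to 57 calls, and 49 of the 54 called members kept the call every time. With library totals 27 were higher and 21 lower, 62.3% of members against 69.5% of all genes, and the member median was -0.01 against -0.32 for all genes. The majority was higher under both scalings, with a smaller margin under library totals.

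RPL39, a short large subunit protein at the exit tunnel, had the largest rise. It stood at 174, 180 and 173 CPM at 20 µg/mL, at 225, 218 and 213 at 100 and at 378, 413 and 313 at 500. The groups did not overlap at any dose, and the log2 difference between 500 and 20 µg/mL was 1.06 (SE 0.12, adjusted p = 5.1e-11). Lack of overlap between 500 and 20 µg/mL was a condition for naming RPL39, RPL41 and RPLP1 here. No library outside Astragalus at 500 µg/mL exceeded 225 CPM among the 54 other extract libraries. RPL41, whose product is among the shortest proteins known, went from 412, 394 and 416 CPM to 861, 828 and 665 (log2 0.95, SE 0.14, adjusted p = 9.3e-08). RPLP1 went from 216, 217 and 218 to 433, 393 and 370 CPM (log2 0.88, SE 0.14, adjusted p = 7.0e-07), while its Paeonia libraries at 500 µg/mL were lower than vehicle.

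RPL6, a large subunit protein encoded at chr12:112405190-112418838 (minus strand, GRCh38), had the deepest fall. It stood at 674, 652 and 600 CPM at 20 µg/mL, at 629, 621 and 604 at 100 and at 282, 306 and 388 at 500. The log2 difference between 500 and 20 µg/mL was -0.98 (SE 0.07, adjusted p = 1.4e-17). All 54 other extract libraries lay between 517 and 687 CPM, above the highest Astragalus library at 500 µg/mL. RPL26 is a large subunit protein near the exit tunnel that also binds the p53 mRNA. Its level went from 424, 391 and 403 to 262, 263 and 319 CPM (log2 -0.53, SE 0.09, adjusted p = 1.1e-06). RPL21 went from 204, 201 and 196 to 124, 136 and 164 CPM (log2 -0.50, SE 0.07, adjusted p = 5.6e-08). RPS26, a small subunit protein at the mRNA exit site, went from 313, 297 and 276 to 235, 184 and 233 CPM (log2 -0.44, SE 0.13, adjusted p = 0.0021). None of these 4 genes overlapped between the doses, which was a condition for naming them and held for 52 of the 54 called members. How many of all called genes lacked overlap is not given, so this count is no result about the members. With library totals these 4 and RPL39, RPL41 and RPLP1 kept their direction and their call, RPL39 at 0.76 and RPL6 at -1.28. Pseudogenes named after RPL21 took 7.515% of the counts over gene and copies.

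**Figure D3:**
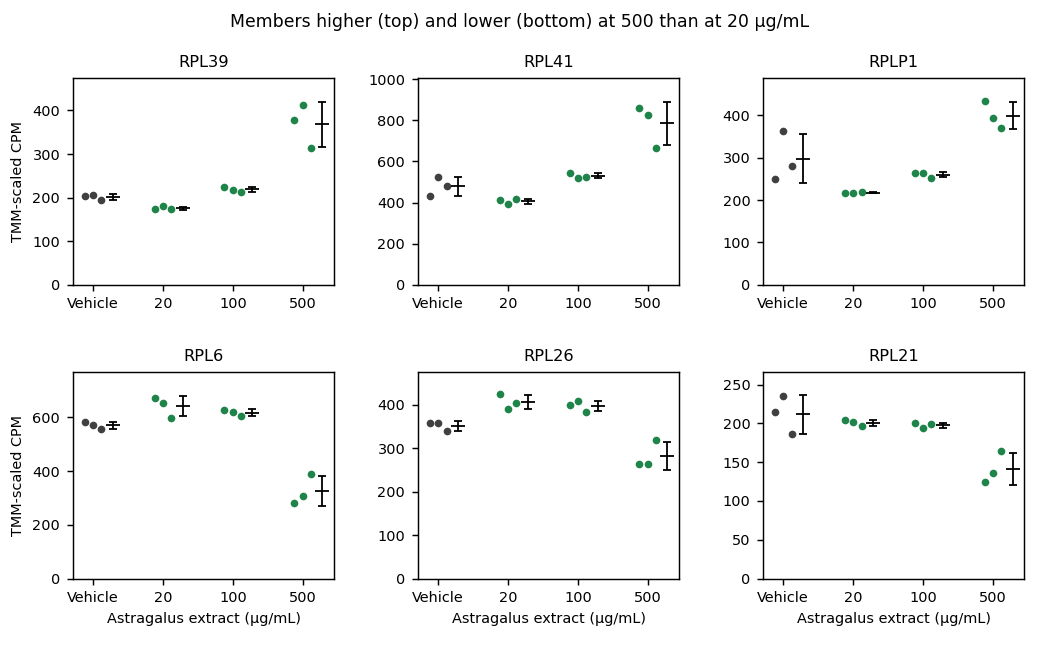
TMM-scaled CPM of 3 members that rose (top) and 3 that fell (bottom) in vehicle and in Astragalus extract at 20, 100 and 500 µg/mL, with 1 point per library and mean ± SD (n = 3). The 3 libraries at 500 µg/mL stand apart from those at 20 µg/mL in all 6 panels, which was a condition for choosing these genes.

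The middle dose lay between the other doses for most of these genes. Over all 77 members, 53 had group means in rising order with dose and 9 in falling order. For called members the call fixed the order of 20 and 500 µg/mL, so only the middle dose was free. Of the 43 members called higher, 42 had group means in the order 20, 100, 500 µg/mL, with a median log2 step of 0.16 from 20 to 100 and 0.44 from 100 to 500. Of the 11 called lower, 7 were in descending order, and their median steps were -0.02 and -0.42. The fall was thus nearly all between 100 and 500 µg/mL in these medians. In the members with a TOP tract of at least 5 letters, 29 of 46 were higher and 5 lower (median log2 0.38). In those with a shorter or no tract at a listed start, 7 of 16 were higher and 5 lower (median 0.17), and RPL6 and RPS26 belong to this group. A tract at a start that is not listed would be missed, so this group may hold genes whose mRNA has one. The difference between the groups was not tested. In the 15 members without an entry, 7 were higher and 1 lower.

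Base composition and the mitochondrial share moved with the Astragalus result. The members called higher had a median transcript GC content of 52.08%, those called lower 45.93%, and the rank correlation of GC content with the log2 difference was 0.41 over 77 members, which share their libraries. Over all genes tested the median log2 difference went from -0.39 below 45% GC to 0.43 above 60% GC. GC content and length are those of a representative transcript, which for some members was long, 7686 bases for RPL37 and 4916 for RPL27A. After an offset for each library's trend on GC content and transcript length, fitted without the members, 46 members were higher and 12 lower (75.3%, against 67.2% of all genes), with a member median of 0.26 against 0.03 for all genes. Under the offset RPL39 was at 1.45 (adjusted p = 1.3e-15), RPL41 at 1.02 (adjusted p = 4.7e-10) and RPLP1 at 0.86 (adjusted p = 9.0e-07). RPL6 was at -0.91 (adjusted p = 2.8e-18), RPL21 at -0.50 (adjusted p = 3.1e-09), RPS26 at -0.46 (adjusted p = 0.00091) and RPL26 at -0.32 (adjusted p = 0.00020). Mitochondrially encoded genes took 24.1% to 26.8% of counts at 500 µg/mL of Astragalus, against 13.6% to 15.3% in vehicle. Members made up 3.63%, 3.68% and 3.39% of all counts in those libraries and 4.97%, 4.86% and 4.61% of the counts outside the mitochondrial genes, against 4.41%, 4.50% and 4.13% in vehicle.

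The difference between extracts was tested directly. The step from 20 to 500 µg/mL in Astragalus was set against the mean step of the other 6 extracts, and 46 members differed, 34 with a higher and 12 with a lower step (background 64.8%, 32.1% and 32.7%). RPL39 differed by 0.92 (SE 0.13, adjusted p = 2.3e-08), RPS14 of the small subunit platform by 0.79 and RPL41 by 0.73. RPL6 differed by -1.04 (SE 0.07, adjusted p = 6.4e-17), RPL26 by -0.62, RPL21 by -0.57 and RPL17 by -0.57. With library totals 17 were higher and 24 lower (53.2% of members, 64.4% of all genes). For Paeonia the same test called 5 members, all with a lower step (background 22.6%, 13.0% higher and 9.54% lower). They were RPL35, RPL18, RPL8, RPLP2 and RPS16. The other 6 extracts here include Astragalus, whose member median between doses was 0.298, against -0.021 for Paeonia. Between the Paeonia doses themselves only RPL4 was called, so these 5 are lower relative to that mean only. RPL35, a large subunit protein at the exit tunnel, stood at 267 and 278 CPM at 500 µg/mL and at 336 and 326 at 20, and its step differed by -0.48 (SE 0.13, adjusted p = 0.0044). The RPL35 call held in each of 36 fits without a library, while the other 4 were lost in 2 or 3 of them (RPS16 up to adjusted p = 0.18). The Paeonia count was 1 without its 500 replicate 2, 2 without its 20 replicate 3 and 8 without its 20 replicate 2, its 500 replicate 3 or Rehmannia 20 replicate 3. It was also 8 without Astragalus 500 replicate 3, where 1 of the 8 had a higher step.

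In the other 6 extracts 2 calls were made in all between doses in the fit of all groups. Angelica, Rehmannia, Cinnamon and Sagunja-tang had 0 called members, with backgrounds of 1.05% of genes in Angelica (0.443% higher, 0.611% lower), 1.41% in Rehmannia (0.785%, 0.623%), 0.809% in Cinnamon (0.264%, 0.545%) and 10.4% in Sagunja-tang (5.70%, 4.73%). At an unadjusted p below 0.05 the counts were 17, 32, 0 and 4, where 11.7%, 12.2%, 9.41% and 22.5% of all genes were below it, and DESeq2's Wald test called 1, 0, 0 and 0. Paeonia had 1 call (background 30.6%, 16.8% higher and 13.9% lower), RPL4 at 0.16 (adjusted p = 0.017), with 1063 and 1086 CPM against 971 and 958. Cnidium had 1 call (background 18.4%, 9.56% higher and 8.83% lower), RPL17 at 0.24 (adjusted p = 0.035). The RPL4 call was lost without any of its 4 libraries, and the RPL17 call without 5 of the 6. These counts depended on the fit. Without a filter on low counts, with 33371 genes tested, there were 26 calls in Rehmannia (background 1.29%), 16 in Angelica (1.16%), 15 in Cnidium (8.30%), 2 in Paeonia (13.9%), 2 in Sagunja-tang (4.56%) and 0 in Cinnamon (0.629%). In fits of the compared groups alone there were 11 in Cnidium (background 21.7%), 10 in Sagunja-tang (14.5%), 5 in Paeonia (36.0%) and 0 in Angelica, Rehmannia and Cinnamon (0.315%, 0.117% and 0.202%). The member log2 differences were positive for 73 of 77 in each of Angelica, Cnidium, Rehmannia and Cinnamon and for 72 in Sagunja-tang, against 32 in Paeonia, and the medians were 0.15, 0.09, 0.16, 0.07, 0.10 and -0.02. Members of a library move together, so these counts are no more than a description of 4 to 6 libraries each. Without Rehmannia 20 replicate 1 the Rehmannia median was 0.08, and the Angelica median was 0.09 without Angelica 20 replicate 3 and 0.09 without Angelica 500 replicate 2. Without Rehmannia 20 replicate 3 there were 9 calls in Rehmannia, and without Angelica 500 replicate 3 there were 6 in Angelica.

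**Figure D4:**
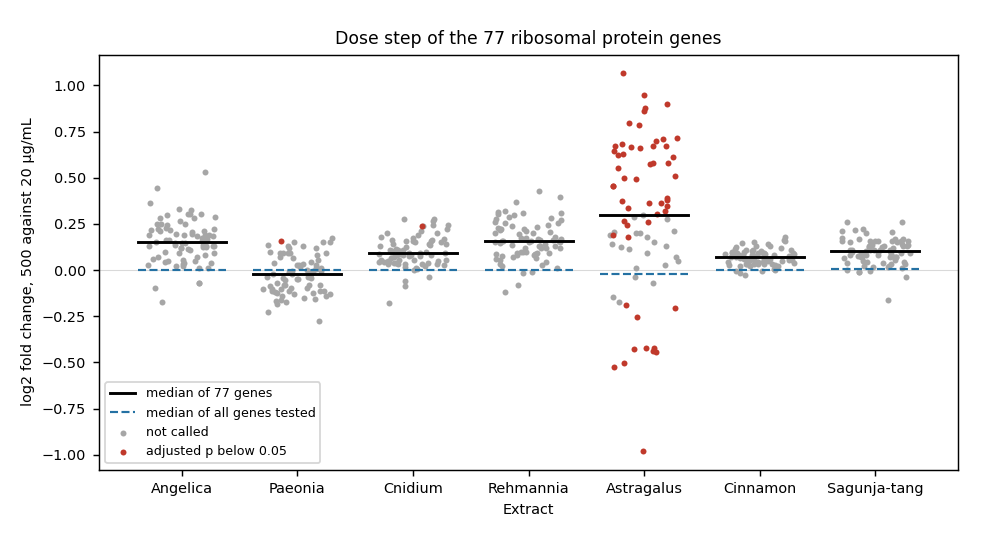
Log2 fold change between 500 and 20 µg/mL for the 77 members (points, red where called) in each extract with at least 2 libraries per dose, with the median of the members (solid line) and of all genes tested (dashed line). Astragalus spans -0.98 to 1.06 with 54 red points, and the other 6 extracts have 2 red points in all in the fit of all groups.

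Several members have known roles outside the ribosome. RPL5 fell with Astragalus, from 478, 463 and 474 CPM at 20 µg/mL to 328, 341 and 389 at 500 (log2 -0.42, adjusted p = 1.2e-09), while its partner RPL11 stood at 0.01 (adjusted p = 0.89) with TMM and at -0.29 (adjusted p = 0.00043) with library totals. RPS6, the substrate of S6 kinase, fell from 924, 855 and 897 to 608, 678 and 706 CPM (log2 -0.43, adjusted p = 1.4e-08). RPLP0, the stalk base and a common reference gene, rose from 927, 848 and 847 to 1440, 1389 and 1175 CPM (log2 0.61, adjusted p = 3.2e-10). RPSA, the laminin receptor precursor, rose by 0.63 (adjusted p = 5.3e-12). RPLP0 was lower than vehicle at 500 µg/mL in Angelica (-0.33, adjusted p = 0.0027), Rehmannia (-0.24, adjusted p = 0.012), Paeonia (-0.21, adjusted p = 0.029) and Cnidium (-0.19, adjusted p = 0.043), and higher in Astragalus (0.49, adjusted p = 6.9e-08). With library totals the Astragalus value against vehicle was 0.10 (adjusted p = 0.32), and leaving out a library ended the Paeonia and Cnidium calls in 4 fits each and the Rehmannia call in 1. RPL22, which a cell can replace by its paralog RPL22L1, was at -0.17 (adjusted p = 0.055) between the Astragalus doses and at 0.20 (adjusted p = 0.022) after the GC and length offset, so its direction depended on that offset.

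Other genes of ribosome production did not follow the members as a block. In Astragalus between 500 and 20 µg/mL, 14 of 24 genes for ribosomal RNA processing and ribosome assembly fell and 7 rose, with a median of -0.45 against -0.02 over all genes. That is 87.5% of the list called, where 69.5% of all genes were. The box C/D snoRNP core protein NOP58 fell by 2.43, the small subunit export factor LTV1 by 2.28 and the GTPase GNL3 by 1.86 on the log2 scale. Of 10 genes of the RNA polymerase I machinery 6 fell, UBTF by 1.07 among them, and 1 rose, 70.0% of the list. Of 20 translation factors and other TOP genes 10 rose and 9 fell, with the elongation factor EEF2 at 1.06 and the nucleolar chaperone NPM1 at -0.89. FAU, which encodes a ribosomal protein joined to a ubiquitin-like protein and lies outside the rule, rose by 0.74. Of 10 regulators of ribosomal protein output 7 rose and 3 fell, with the mTOR inhibitors SESN2 at 1.501 and DDIT4 at 1.28 and the S6 kinase gene RPS6KB1 at -0.81. MTOR (0.32), RPTOR (0.43) and MYC (0.50) of the same list also rose, and are named after their values were seen. In Cnidium 23 of the 24 assembly genes and 8 of the 10 polymerase I genes rose with dose while 1 of the 77 members was called and 18.4% of all genes were. NOP16 rose by 0.51 and BOP1 by 0.47 in Cnidium. In Paeonia against vehicle at 500 µg/mL 20 of the 24 assembly genes were lower and 1 higher, where 46.4% of all genes were called, led by NOP56 at -0.87, and FAU stood at -0.65. Of the 78 genes for mitochondrial ribosomal proteins, 33 rose and 17 fell with Astragalus dose (median 0.12), where 69.5% of all genes were called. Of 6 tested paralogs of members outside the rule 1 rose and 3 fell, of 9 hepatocyte markers 3 rose and 4 fell, and of 2 tested markers of other cell types 1 rose. The part of these lists in the member result was not tested.

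The members differed in how far they moved over the 22 groups that have at least 2 libraries. The range of group means was 0.254 to 1.388 on the log2 scale with a median of 0.667. The SD between libraries of a group was 0.044 to 0.286 with a median of 0.113. A range and an SD are unlike measures, and a range over 22 means is wide to some degree even where no group differs. Wide ranges were those of RPL39 (1.39), RPL41 (1.28), RPLP1 (1.27) and RPS29 (1.249), each with its highest group in Astragalus at 500 µg/mL. The narrowest were RPL19 (0.25), RPL4 (0.28), RPL22 (0.30), RPL24 (0.30) and RPL34 (0.33). RPL4 also had the smallest spread between libraries, and RPS28 the largest. The level per kilobase of a representative transcript in vehicle was highest for RPS2 (1698 CPM per kb), RPS27 (1391) and RPS15A (1327), and lowest for RPL37 (63.6), RPS23 (114) and RPL27A (119). The last 3 have a listed transcript of 3437 bases or more, which lowers a value per length. Pseudogenes named after a member took more than 5% of the counts over gene and copies for 5 members, RPL23A with 42.79% and then RPL36A, RPL22, RPL21 and RPS2, and the median over the members was 0.0745%. Adding the pseudogene counts to their members moved none of the 17 counts of called members by over 1.5 times. Samul-tang, with 1 library per dose and no test, had member medians against vehicle of -0.01, 0.02 and -0.05 at 500, 100 and 20 µg/mL.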

How the data were processed

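Directional mRNA libraries of HepG2 cells were read as 100 bp pairs, per the labels' protocols. The deposited table holds expected counts per gene, made by the authors on GRCh38. The tools listed are RSEM 1.3.3 and STAR 2.7.3a, with Trim Galore (version 0.6.5) and FastQC (version 0.11.9), per the submitters' processing notes. The annotation release is not given in the sources used here. The table has 270 value columns, of which 60 were matched to samples and 210 were not used. Expected counts split reads between similar copies: 53.701% of the member values were not whole (tolerance 1e-09), against 8.211% of all values. Identifiers were matched to symbols, gene types, positions and transcript lengths of GENCODE 29 (57055 of 60675 identifiers, 99.96% of counts).

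Expected counts were rounded and fitted with edgeR 4.0.16 (R 4.3.3) in 1 quasi-likelihood model of 60 libraries in 25 groups, with filterByExpr (16692 genes) and TMM factors (0.784 to 1.1, and 0.784 to 0.851 in Astragalus at 500 µg/mL), 35 residual degrees of freedom and a common coefficient of biological variation of 0.06. The 17 contrasts were adjusted over all genes by Benjamini-Hochberg. The test was checked on simulated data in which a small part of the genes changed, in Astragalus at 500 µg/mL only, without a GC trend. That check does not cover a comparison in which most genes are called. DESeq2 1.42.0, other scalings, filters, a replicate term, a GC and length offset and fits without each library were the alternatives. TOP tracts and sequences came from RefSeq promoters (GRCh38.p14), and proteins were not analysed here. Members, gene lists and comparisons were chosen with earlier results of these data known. The named genes were, per comparison, up to 4 of the largest rises and 4 of the largest falls among called members whose libraries did not overlap, the 5 widest and 5 narrowest ranges, the 3 highest and 3 lowest levels per length, 8 genes with roles outside the ribosome or as references, and up to 3 called genes of each other list. Some genes that this rule names are not reported here. Others are said to be chosen after their values were seen. Depth limits little here, since each member had a mean of at least 5 CPM.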

Additional observations from a re-analysis of the deposited data

Results flagged for a closer look

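The dose step of Astragalus differed from that of the other 6 extracts in 46 members (59.7%; 64.8% of all genes tested) by the test of the difference itself. The log2 difference of the step was 0.92 for RPL39, 0.79 for RPS14, 0.73 for RPL41, -1.04 for RPL6, -0.62 for RPL26, -0.57 for RPL21 and -0.57 for RPL17, and each of these 7 was past the threshold. The dose step of Paeonia differed from that of the other extracts in 5 members (6.49%, against 22.6% of all genes) by the same test. RPL35 was at -0.48 and RPS16 at -0.23. The mean of the other extracts includes Astragalus, and neither gene was called between the Paeonia doses themselves. The RPS16 value was no longer past the threshold without Paeonia 500 replicate 2 (adjusted p = 0.13) or Paeonia 20 replicate 3 (adjusted p = 0.18), nor after the GC and length offset (adjusted p = 0.062). Libraries of the Astragalus, Paeonia and other groups share 1 fit and its estimate of the spread.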

How the results depend on the processing

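Of 205 named gene values, 2931 of 3089 values under the alternatives kept their side of the threshold with no called change of direction, 115 were no longer past it, 36 came to pass it and 7 changed direction, while 68 of the first kind changed sign without a call in either setting. With library totals RPL11 was at -0.29 between the Astragalus doses, -0.23 for Astragalus against vehicle and -0.19 for Paeonia against vehicle, and RPL5 was at -0.19 for Paeonia against vehicle. With the GC and length offset, chosen for named genes after seeing the data, RPL22 was at 0.20, 0.32 and 0.12 for the Astragalus doses, against vehicle and for the difference of the dose step. The cause was not tested.

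Counts of called members moved by over 1.5 times as follows. The share of all genes called changed with the setting too, and is given above for part of these fits only. The counts describe how the calls depended on the fit, and do not set the members against other genes. Without a filter on low counts, the counts against vehicle were 48 for Angelica, 40 for Cnidium, 45 for Rehmannia, 30 for Cinnamon and 32 for Sagunja-tang. Between doses they were then 16 for Angelica, 2 for Paeonia, 15 for Cnidium, 26 for Rehmannia and 2 for Sagunja-tang, and 22 for the Paeonia step difference. In fits of the compared groups alone they were 42 for Cnidium, 43 for Rehmannia, 21 for Cinnamon and 29 for Sagunja-tang against vehicle, and 5 for Paeonia, 11 for Cnidium and 10 for Sagunja-tang between doses. At a mean of at least 5 CPM they were 1 for Angelica, 3 for Paeonia and 0 for Cnidium between doses. With the offset they were 22 for Sagunja-tang against vehicle, and 1 for Angelica, 3 for Cnidium and 1 for Sagunja-tang between doses. DESeq2 gave 1 for Angelica between doses and 8 for the Paeonia step difference, and library totals gave 7 for Paeonia between doses and 13 for its step difference.

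Leaving out each library gave, against vehicle, 17 to 27 calls for Angelica, 20 to 36 for Paeonia, 9 to 18 for Cnidium, 10 to 25 for Rehmannia, 47 to 55 for Astragalus, 7 to 11 for Cinnamon and 6 to 18 for Sagunja-tang. Between doses the ranges were 0 to 6 for Angelica, 0 to 0 for Paeonia, 0 to 2 for Cnidium, 0 to 9 for Rehmannia, 51 to 57 for Astragalus, and 0 for Cinnamon and Sagunja-tang. They were 31 to 43 for 20 µg/mL against vehicle, 43 to 51 for the Astragalus step difference and 1 to 8 for the Paeonia step difference. Shares over all genes are not given for fits without a library, here and above. These ranges therefore describe dependence on single libraries only. The share difference ranged from -0.406 to -0.2099 points. The first was past the threshold, in a test that treats libraries of different extracts as interchangeable.

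With the replicate number as a block the counts against vehicle were 29, 39, 19, 23, 53, 12 and 12 in the order above, and 38 for 20 µg/mL against vehicle. Between doses they were 0, 1, 1, 0, 54, 0 and 0, with 46 and 5 for the step differences. Shares of all genes called are not given for the block. The share test had an exact permutation p of 0.0774. Libraries of vehicle and extract with the same number had a mean correlation of -0.0045 over 54 pairs. Among libraries that share a prefix it was 0.0963 for the same number (66 of 126 pairs over 0.1) and -0.0563 for another number. Between doses it was 0.151 in Angelica, 0.239 in Paeonia, 0.166 in Astragalus, 0.255 in Cinnamon and 0.268 in Sagunja-tang, 0.0388 in Cnidium and -0.116 in Rehmannia. Not every pair was over 0.1, so the numbers were not taken as pairs. The correlation was seen among libraries that share a prefix, while the block was common to all libraries. The block counts therefore cannot show whether pairing within a prefix would change the calls.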
